A study of Mus musculus with 12 samples.

Results

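The p53 target genes described here are 33 genes that the transcription factor p53 is known to switch on, picked by name, with the BCL2 family left out. All 33 were found among the 55487 genes of the read count table, and all 33 passed the filter on low counts, so each was tested. The data are mRNA libraries from MPC5, an immortalized mouse podocyte line, 24 hours after transfection. In the vector group (6 libraries, labelled wild type) the cells carried an empty plasmid, and in the SPARCoe group (6 libraries) a plasmid for overexpression of Sparc, which encodes a collagen-binding matricellular protein. Both groups thus share the line and the transfection. The labels do not say which share of cells took up plasmid, so each value averages over cells with and without it, and fewer cells of a kind and less RNA per cell cannot be told apart. Nor do they name separate cultures behind the 6 libraries of each group, so p-values measure the spread between libraries, which may be technical.

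p53 is held at a low level in unstressed cells, mainly because the ubiquitin ligase Mdm2 marks it for degradation. DNA damage and other stresses release it, and it then binds DNA at pairs of short half-sites and raises genes that halt the cell cycle, start apoptosis, repair DNA or alter metabolism. Some of these genes also respond to growth factors, cytokines or nutrient stress without p53. In mouse podocytes, loss of Mdm2 is known to cause p53-dependent cell death. Lines like MPC5 carry a temperature-sensitive SV40 large T antigen, a viral protein that binds p53, which was not analysed here.

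Library totals ran from 33051035 to 47380987 counts, with overlapping ranges in both groups. Between 21464 and 22037 genes had a count in vector libraries and between 22781 and 24191 in SPARCoe libraries, without overlap, and the part of this difference in the results was not tested. The least covered of the 33 genes had at least 170 counts in every library. Levels are given as CPM (the library's counts on a common scale, with TMM factors), and between genes as the deposited FPKM, which also divides by gene length. Sparc itself was between 740.9 and 772.1 CPM in vector and between 9751 and 10523 CPM in SPARCoe, a 13.5-fold difference with no overlap (log2 fold change 3.75 ± 0.02, SE, edgeR adjusted p = 6.69e-61). An exact two-sided permutation test over 924 assignments gave p = 0.00216 for Sparc, the smallest these groups allow. The podocyte label was borne out in part: Synpo, Podxl, Kirrel and Cd2ap were expressed, while Tcf21 had no count in any library and Nphs1, Wt1 and Ptpro were each below 1 CPM. The 9 podocyte markers examined summed to 871.1 to 897 CPM in vector and 789.8 to 818.4 CPM in SPARCoe. The 6 tubule markers summed to 483.7 to 505.6 CPM in vector and 355.2 to 373.5 CPM in SPARCoe. Lrp2, Pax8, Aqp1 and Cubn were expressed, with vector means of 257.9, 155.8, 66.1 and 12.6 CPM, and each was lower in SPARCoe. Umod had no count and Slc34a1 was below 1 CPM. Expression of these tubule markers thus goes against a purely podocyte profile. The 5 fibroblast and mesangial markers summed to 129.4 to 140.7 CPM and 91.9 to 100.5 CPM. The 7 leukocyte markers summed to 13.3 to 16.0 and 13.2 to 15.4 CPM, and the 4 endothelial markers to 1.92 to 2.93 and 1.74 to 3.31 CPM. The part of these shifts in the results that follow was not tested.

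Most p53 target genes were higher with the Sparc plasmid, but mostly by little, and several of the best known hardly moved. The death receptor gene Fas and the stress protein gene Trp53inp1 more than doubled. Cdkn1a, which encodes the cell-cycle inhibitor p21, rose 1.101-fold, and the classical targets Ccng1 and Phlda3 did not pass. Zmat3, Tnfrsf10b and Gdf15 fell. In all, 18 of the 33 genes rose (54.5%), 3 fell (9.09%) and 12 did not pass at an adjusted p under 0.05 in edgeR's quasi-likelihood test. Of all 15734 genes tested, 14.9% rose and 14.1% fell by the same rule (29.1% together). The median log2 fold change was 0.14 over the 33 genes and -0.0033 over all genes tested. Among the 18 rises, 12 were at least 1.2-fold and 2 at least 2-fold. The corresponding shares were 66.7% and 11.1%, beside 57.7% and 22.2% of all genes that rose.

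Tested against a minimum change of 1.2-fold (glmTreat in edgeR), 8 of the 33 genes were higher, where 5.43% of all genes were. They were Fas, Trp53inp1, Dcxr, Pidd1, Gadd45a, Ercc5, Fbxw7 and Apaf1. None of the 33 was lower by that test, where 0.877% of all genes were, and 1 was lower at an unadjusted p under 0.05. In either direction 6.3% of all genes passed it. DESeq2 called 17 of the 33 genes higher and 3 lower, beside 11.8% and 9.09% of the genes it tested. With at least 1 CPM required in 6 libraries edgeR called 21 higher and 3 lower, beside 16.5% and 15.9%. The fewest calls without a minimum change, 15 higher and 2 lower, came from limma on the deposited FPKM of all genes, beside 7.23% and 5.04%. The levels of the groups did not overlap for 12 genes that were higher and 2 that were lower in SPARCoe. Over all genes tested, 8.57% were higher and 7.04% lower without overlap, 15.6% in all.

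**Figure D1:**
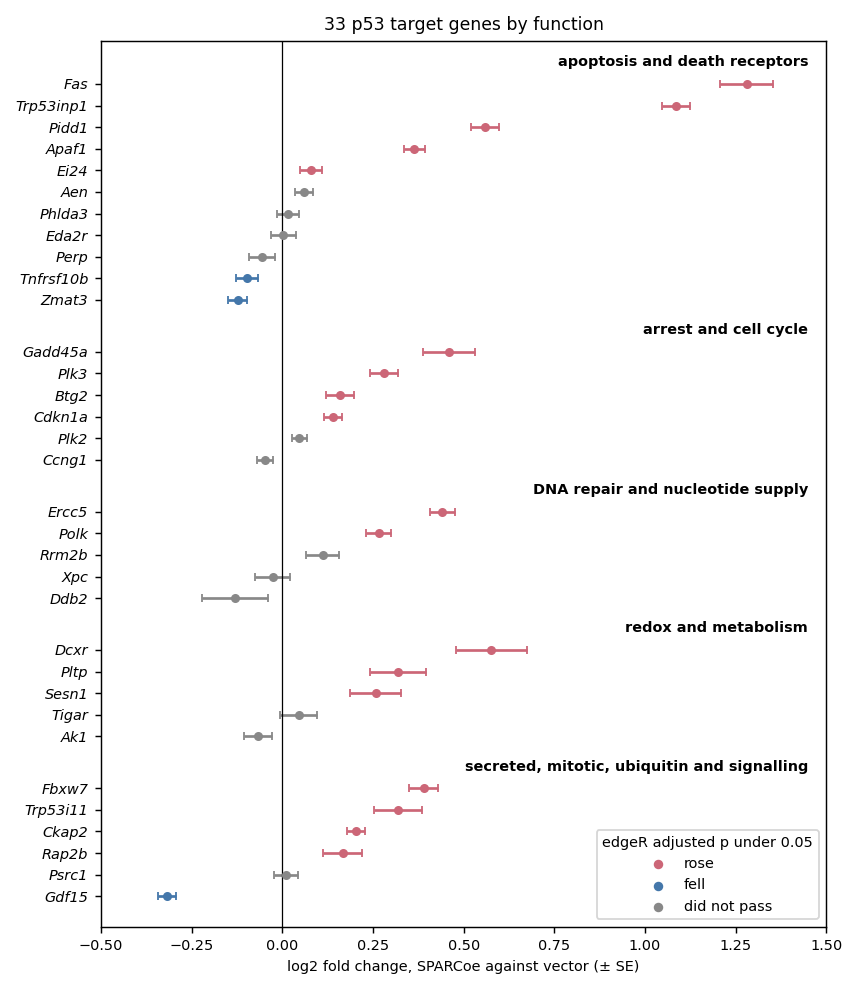
Log2 fold change (SPARCoe against vector, with its standard error) of the 33 p53 target genes, grouped by function; red points rose, blue points fell and grey points did not pass at an edgeR adjusted p under 0.05. Fas (1.28) and Trp53inp1 (1.09) lie far to the right of all others, the next being Dcxr at 0.58, and Gdf15 (-0.32) lies farthest to the left.

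Genes of apoptosis spread widely, with log2 fold changes from -0.12 (Zmat3) to 1.28 (Fas). Of 11 members, 5 rose, 2 fell and 4 did not pass, with a median log2 fold change of 0.06. Over all genes tested, 14.9% rose and 14.1% fell, with a median of -0.0033. Fas (ENSMUSG00000024778) encodes the receptor for Fas ligand, which starts the extrinsic death pathway. Its lowest, median and highest levels were 4.88, 5.74 and 6.39 CPM in vector and 12.6, 13.9 and 14.8 CPM in SPARCoe. Every SPARCoe library lay far above every vector library. The means were 5.64 ± 0.518 and 13.7 ± 0.777 CPM (SD, n = 6), a 2.43-fold rise (log2 fold change 1.28 ± 0.07, SE, edgeR adjusted p = 9.98e-19). Per length Fas was still a modest transcript, at 5.07 FPKM in vector and 12.4 FPKM in SPARCoe. Its promoter, shown because this gene rose most, lies at chr19:34290409-34290708 on the plus strand (RefSeq, GRCm38.p6) and reads as follows, from 250 bases before to 50 bases after the start, with a match to TGANTCA, the motif bound by AP-1, in capitals.
Fas: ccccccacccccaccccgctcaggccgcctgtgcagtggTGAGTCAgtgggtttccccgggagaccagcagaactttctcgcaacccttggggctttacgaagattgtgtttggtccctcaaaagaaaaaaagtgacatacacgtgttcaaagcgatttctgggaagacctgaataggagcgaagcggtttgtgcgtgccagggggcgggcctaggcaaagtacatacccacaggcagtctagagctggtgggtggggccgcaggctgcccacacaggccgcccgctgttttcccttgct

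Trp53inp1 (ENSMUSG00000028211), whose product takes part in p53-dependent death and autophagy, ran through 30.9, 33.2 and 36.8 CPM (lowest, median and highest) in vector and 66.3, 71.4 and 73.7 CPM in SPARCoe. The groups were far apart. It rose from a mean of 33.4 ± 2.39 CPM to one of 71.0 ± 2.77 CPM (SD, n = 6; log2 fold change 1.09 ± 0.04, SE, edgeR adjusted p = 1.16e-25). Pidd1 encodes the scaffold of the PIDDosome, which activates caspase-2. It stood at 34.3, 35.2 and 40.4 CPM in vector and 50.7, 53.1 and 55.6 CPM in SPARCoe. Again no library overlapped, and Pidd1 rose 1.47-fold (log2 fold change 0.56 ± 0.04, SE, edgeR adjusted p = 6.93e-16). Apaf1, the core of the apoptosome that activates caspase-9, ran through 71.2, 73.9 and 74.8 CPM in vector and 87.0, 95.5 and 98.1 CPM in SPARCoe. Its vector libraries were the tightest of any of the 33 genes, with a coefficient of variation of 1.73%, and it rose 1.29-fold without overlap (log2 fold change 0.36 ± 0.03, SE, edgeR adjusted p = 3.91e-14). Ei24, an endoplasmic reticulum protein of autophagy, was only just past the threshold (log2 fold change 0.08 ± 0.03, SE, edgeR adjusted p = 0.0429), with 2 of 6 SPARCoe libraries above the highest vector library. Leaving out any 1 of 6 libraries (vector replicates 1, 2 and 3, SPARCoe replicates 1, 4 and 5) ended that call, with adjusted p up to 0.115, and DESeq2 did not make it (adjusted p = 0.06186).

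Of the other death-related genes, 2 fell and 4 did not pass. Zmat3, an RNA-binding protein and a strong p53 target in mouse cells, was at 113.2, 117.4 and 126.1 CPM (lowest, median and highest) in vector and at 106.2, 108.9 and 112.4 CPM in SPARCoe. All 6 SPARCoe libraries lay below all vector libraries, although the step was small. Zmat3 fell from a mean of 118.6 ± 4.97 CPM to one of 108.9 ± 2.01 CPM (SD, n = 6; log2 fold change -0.12 ± 0.03, SE, edgeR adjusted p = 0.000265). Tnfrsf10b, the mouse receptor for the death ligand TRAIL, had 76.3, 79.6 and 85.8 CPM in vector and 71.2, 75.9 and 78.8 CPM in SPARCoe. The groups overlapped, with 3 SPARCoe libraries below the lowest vector library, and the fall was -0.10 ± 0.03 (log2, SE, edgeR adjusted p = 0.0142). The call was lost when vector replicate 3 was left out (edgeR adjusted p = 0.0697), and also on leaving out SPARCoe replicate 2 (edgeR adjusted p = 0.05031) and by limma on the FPKM of all genes (adjusted p = 0.1054).

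Phlda3, which restrains Akt at the membrane, was at 117.7, 130.04 and 137.0 CPM in vector and 125.1, 129.8 and 133.4 CPM in SPARCoe. All SPARCoe libraries lay within the vector range, and Phlda3 did not pass (log2 fold change 0.02 ± 0.03, SE, edgeR adjusted p = 0.773). Aen, an exonuclease that promotes apoptosis, was at 148.5, 153.3 and 161.9 CPM in vector and 155.7, 161.2 and 166.2 CPM in SPARCoe. The groups overlapped, and Aen stayed short of the threshold (log2 fold change 0.06 ± 0.02, SE, edgeR adjusted p = 0.0587), though it passed when any 1 of 5 libraries was left out (lowest adjusted p = 0.0138). Eda2r, a receptor for an ectodysplasin ligand, and Perp, a desmosomal membrane protein, did not pass either, at log2 fold changes of 0.0028 ± 0.03 and -0.06 ± 0.04 (SE). Eda2r is thus the gene among the 33 with the smallest difference between groups.

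**Figure D2:**
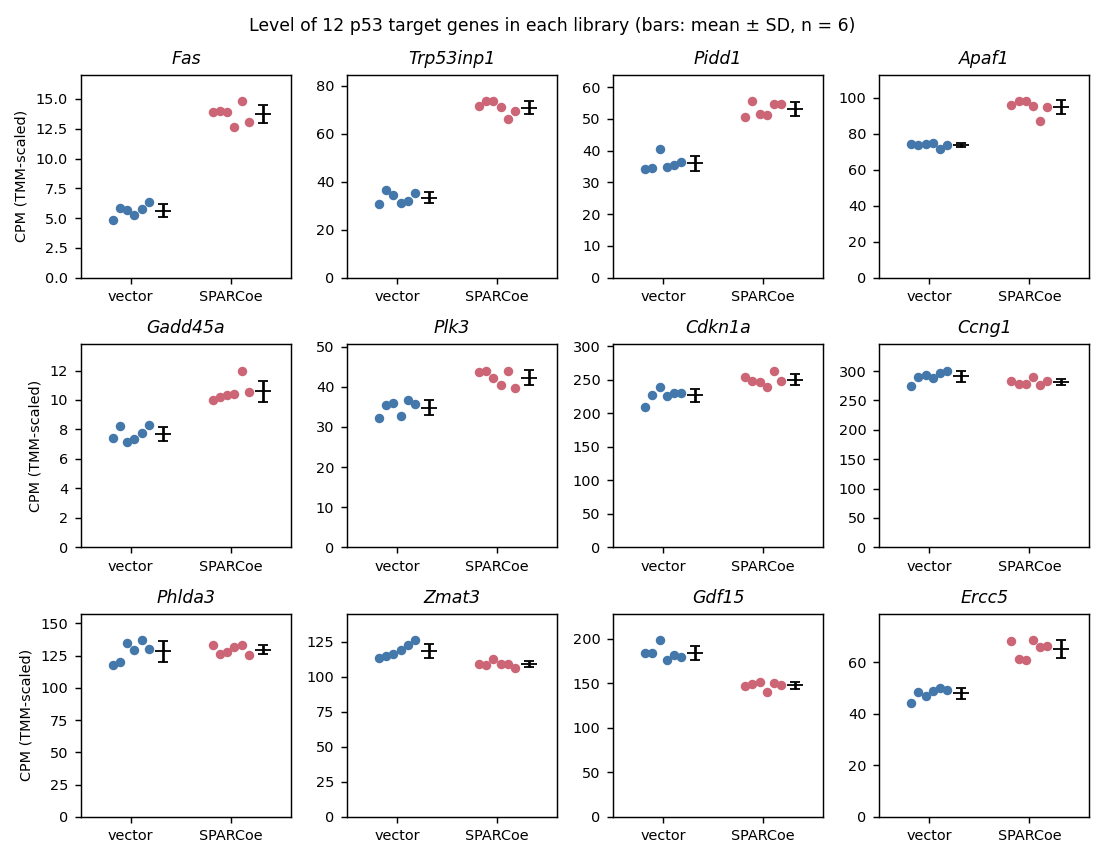
CPM (TMM-scaled, linear axes from 0) of 12 p53 target genes in the 6 vector (blue) and 6 SPARCoe (red) libraries, drawn from replicate 1 to 6 left to right, with the mean ± SD in black. Fas, Trp53inp1, Pidd1, Apaf1, Gadd45a, Plk3, Cdkn1a and Ercc5 are higher and Gdf15 and Zmat3 lower in all 6 SPARCoe libraries than in any vector library, while the points of Ccng1 and Phlda3 overlap.

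Of the 6 genes of arrest and cell cycle control, 4 rose and 2 did not pass, with a median log2 fold change of 0.15. The shares over all genes tested were 14.9% higher and 14.1% lower. Cdkn1a (ENSMUSG00000023067) was at 209.9, 228.6 and 239.0 CPM (lowest, median and highest) in vector and at 239.6, 247.7 and 263.6 CPM in SPARCoe. The ranges did not overlap but nearly touched. Cdkn1a rose from a mean of 226.9 ± 9.56 CPM to one of 249.9 ± 8.09 CPM (SD, n = 6; log2 fold change 0.14 ± 0.02, SE, edgeR adjusted p = 1.96e-05). At 160.9 FPKM in vector it was the second most abundant of the 33 genes per length. Its upstream promoter, shown because it is the 1 promoter among these genes with a pair of exact p53 half-sites, lies at chr17:29090729-29091028 on the plus strand (RefSeq, GRCm38.p6), with the half-sites in capitals.
Cdkn1a: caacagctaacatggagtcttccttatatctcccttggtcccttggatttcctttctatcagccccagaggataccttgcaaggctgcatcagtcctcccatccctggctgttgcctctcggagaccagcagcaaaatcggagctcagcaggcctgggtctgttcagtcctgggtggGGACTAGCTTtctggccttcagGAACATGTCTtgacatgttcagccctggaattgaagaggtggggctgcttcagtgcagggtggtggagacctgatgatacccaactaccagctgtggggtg

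Gadd45a, a growth arrest gene that acts through stress kinases, was at 7.17, 7.57 and 8.30 CPM in vector and 10.0, 10.4 and 12 CPM in SPARCoe. All SPARCoe libraries were higher, and Gadd45a rose 1.38-fold (log2 fold change 0.46 ± 0.07, SE, edgeR adjusted p = 1.26e-06). Its exons share 337 bases with the opposite-strand gene E230016M11Rik in GENCODE M21, which held 1.38 ± 0.225 CPM with the empty vector and 1.67 ± 0.301 CPM in SPARCoe (SD, n = 6). Without a stated strand setting, reads of such pairs cannot be told apart. The Polo-like kinase gene Plk3 rose without overlap (log2 fold change 0.28 ± 0.04, SE, edgeR adjusted p = 1.71e-07). Btg2, an antiproliferative partner of the mRNA deadenylase complex, rose by less (0.16 ± 0.04, SE, edgeR adjusted p = 0.000918), with 4 of 6 SPARCoe libraries above all vector libraries.

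The 2 arrest genes that did not pass were among the most abundant. Ccng1, which encodes cyclin G1, was at 274.8, 291.8 and 301.0 CPM (lowest, median and highest) in vector and 277.0, 280.8 and 289.2 CPM in SPARCoe. Every SPARCoe library lay within the vector range, and the difference did not pass (log2 fold change -0.05 ± 0.02, SE, edgeR adjusted p = 0.0861). Without vector replicate 1, the lowest of its group, Ccng1 passed as lower (edgeR adjusted p = 0.0196). Plk2, a Polo-like kinase of centriole duplication, was the most abundant of the 33 genes at 482.9 FPKM in vector. It ran through 742.2, 764.5 and 800.9 CPM in vector and 771.1, 793.6 and 815.6 CPM in SPARCoe. The groups overlapped, and it did not pass (log2 fold change 0.05 ± 0.02, SE, edgeR adjusted p = 0.0726), though it did when any 1 of 5 libraries was left out (lowest adjusted p = 0.0245).

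Of the 5 genes of DNA repair and nucleotide supply, 2 rose and 3 did not pass. Among all genes tested, 14.9% rose and 14.1% fell. Ercc5, the endonuclease XPG that cuts on the 3′ side of a lesion in nucleotide excision repair, was at 44.2, 48.6 and 50.02 CPM in vector and 60.8, 65.9 and 68.5 CPM in SPARCoe. All SPARCoe libraries were well above the vector range, and Ercc5 rose 1.36-fold (log2 fold change 0.44 ± 0.04, SE, edgeR adjusted p = 5.15e-14). Polk, a translesion DNA polymerase, rose without overlap from a mean of 49.5 ± 2.03 CPM to one of 59.5 ± 2.81 CPM (SD, n = 6; edgeR adjusted p = 3.3e-08). Xpc and Ddb2, which recognize lesions in that same repair pathway and are textbook p53 targets in human cells, did not follow. Xpc was at 19.3, 19.8 and 20.8 CPM in vector and 18.8, 19.7 and 19.9 CPM in SPARCoe. The ranges overlapped, and its log2 fold change was -0.03 ± 0.05 (SE, edgeR adjusted p = 0.74). Ddb2 was low, at 5.52 ± 0.575 and 5.04 ± 0.27 CPM (SD, n = 6), and 23.8% of its exon bases lie over the more abundant opposite-strand gene Acp2. Ddb2 did not pass (log2 fold change -0.13 ± 0.09, SE, edgeR adjusted p = 0.318), while Acp2 fell by 0.19 (log2, edgeR adjusted p = 0.00274), and their reads cannot be told apart. Rrm2b, the p53-inducible subunit of ribonucleotide reductase, was at 24.5, 26.7 and 30.1 CPM in vector and 27.3, 29.1 and 31.4 CPM in SPARCoe. The groups overlapped in 5 of 6 SPARCoe libraries, and Rrm2b did not pass (log2 fold change 0.11 ± 0.05, SE, edgeR adjusted p = 0.0676). Leaving out vector replicate 2 or SPARCoe replicate 5 brought it past the threshold (lowest edgeR adjusted p = 0.0137).

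Of the 5 genes of redox control and metabolism, 3 rose and 2 did not pass, all 5 at 50.9 CPM or less in every library. Beside them, 14.9% of all genes tested rose and 14.1% fell. Dcxr, a carbonyl reductase that reduces xylulose, was at 4.68, 5.98 and 6.27 CPM in vector and 7.10, 8.18 and 11.8 CPM in SPARCoe. The groups did not overlap, but the SPARCoe libraries spread widely, with the largest coefficient of variation of the 33 genes (19.2%). Dcxr rose 1.49-fold (log2 fold change 0.58 ± 0.10, SE, edgeR adjusted p = 1.23e-05). Pltp, a phospholipid transfer protein of lipoproteins, was at 7.29, 7.85 and 8.497 CPM in vector and 8.13, 9.72 and 11.1 CPM in SPARCoe. In 5 of 6 SPARCoe libraries it lay above the vector range (log2 fold change 0.32 ± 0.08, SE, edgeR adjusted p = 0.000987). Pltp shares 495 exon bases with the opposite-strand gene Ctsa, which was about level at 86.6 ± 6.90 and 82.1 ± 4.64 CPM (SD, n = 6; edgeR adjusted p = 0.31).

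Sesn1, a sestrin that inhibits mTORC1, was at 9.94, 11.7 and 14.0 CPM in vector and 12.4, 13.7 and 15.9 CPM in SPARCoe. The groups overlapped, with 2 SPARCoe libraries above all vector libraries, and Sesn1 rose by 0.26 ± 0.07 (log2, SE, edgeR adjusted p = 0.00396). By limma on the deposited FPKM of all genes it did not pass (adjusted p = 0.06721). Its vector libraries had the largest coefficient of variation of that group (11.98%). Tigar, which lowers glycolytic flux by cleaving fructose-2,6-bisphosphate, was at 16.8, 17.7 and 18.01 CPM in vector and 17.1, 18.2 and 18.9 CPM in SPARCoe, and did not pass (log2 fold change 0.05 ± 0.05, SE, edgeR adjusted p = 0.566). Of its SPARCoe libraries, 3 were above the vector range and 3 within it. Ak1, adenylate kinase, was at 45.0, 48.8 and 50.9 CPM in vector and 43.2, 45.9 and 49.7 CPM in SPARCoe. These ranges overlapped as well (log2 fold change -0.07 ± 0.04, SE, edgeR adjusted p = 0.198).

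The remaining 6 genes, of secretion, mitosis, ubiquitination and signalling, had 4 rises and 1 fall, beside 14.9% and 14.1% of all genes. Gdf15 (ENSMUSG00000038508), a secreted stress cytokine that is also raised by nutrient and endoplasmic reticulum stress, went against the majority. It was at 175.8, 182.8 and 198.5 CPM (lowest, median and highest) in vector and 139.7, 148.7 and 152.0 CPM in SPARCoe. Every SPARCoe library was well below every vector library, and Gdf15 fell from a mean of 184.0 ± 7.71 CPM to one of 147.7 ± 4.27 CPM (SD, n = 6; log2 fold change -0.32 ± 0.03, SE, edgeR adjusted p = 5.38e-14). Fbxw7, the substrate receptor of a ubiquitin ligase that degrades cyclin E and Myc, was at 27.9, 29.1 and 30.4 CPM in vector and 35.9, 38.2 and 39.9 CPM in SPARCoe. It rose without overlap (log2 fold change 0.39 ± 0.04, SE, edgeR adjusted p = 7.27e-11). Trp53i11, a p53-induced membrane protein of uncertain function, was at 12.5, 13.1 and 14.6 CPM in vector and 12.8, 16.7 and 19.1 CPM in SPARCoe. In 5 of 6 SPARCoe libraries it was above the vector range, the exception being replicate 1 (log2 fold change 0.32 ± 0.07, SE, edgeR adjusted p = 0.000186).

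Ckap2 and Psrc1, both microtubule-associated proteins of the mitotic spindle, parted. Ckap2 rose without overlap from a mean of 90.4 ± 2.53 CPM to one of 104.0 ± 1.25 CPM (SD, n = 6; edgeR adjusted p = 1.52e-08). Psrc1 ran through 61.4, 69.6 and 73.2 CPM in vector and 67.8, 68.5 and 69.6 CPM in SPARCoe. All its SPARCoe libraries fell within the vector range (log2 fold change 0.0088 ± 0.03, SE, edgeR adjusted p = 0.888). Rap2b, a small GTPase, rose by 0.17 ± 0.05 (log2, SE, edgeR adjusted p = 0.0146), with 3 SPARCoe libraries above the vector range. That call was lost without SPARCoe replicate 6 (edgeR adjusted p = 0.0584) and by limma on the deposited FPKM (adjusted p = 0.105 to 0.1558). Of the exon bases of Rap2b, 54.5% lie over the opposite-strand gene B430305J03Rik, which had 0 counts in the 12 libraries.

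**Figure D3:**
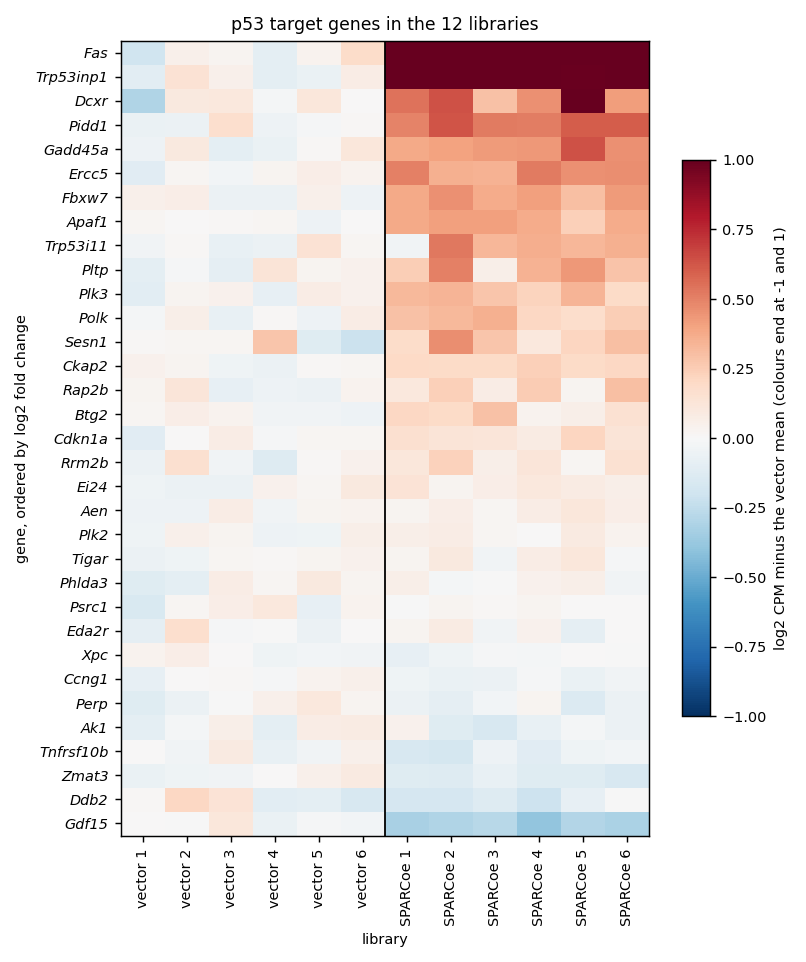
Log2 CPM of each p53 target gene in each of the 12 libraries, minus the mean of the vector libraries, with genes ordered by log2 fold change; the colour scale ends at -1 and 1. The 18 genes that rose averaged between -0.06 and 0.04 in single vector libraries and between 0.38 and 0.46 in single SPARCoe libraries.

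The shift was shared by the libraries of a group. Averaged over the 18 genes that rose, log2 CPM relative to the vector mean lay between -0.06 and 0.04 in single vector libraries and between 0.38 and 0.46 in single SPARCoe libraries. The 12 genes that did not pass averaged between -0.07 and 0.04 in vector and between -0.03 and 0.0087 in SPARCoe. These averages describe sets formed by the test itself and carry no test. The coefficient of variation of a gene's CPM within a group had a median of 5.19% in vector and 4.16% in SPARCoe.

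Genes that rose were found at all levels, and the larger rises at low to middle ones. Per length, the 18 genes that rose had a median of 12.2 FPKM in vector libraries (2.82 to 160.9 FPKM). The 12 that did not pass had a median of 33.1 FPKM (2.95 to 482.9 FPKM), and all 33 genes a median of 24.0 FPKM. Under 10 FPKM, 7 of 10 genes rose and 0 fell, where 15.7% of all tested genes at that level rose and 5.78% fell. From 10 to under 50 FPKM, 8 of 14 genes rose and 2 fell, beside 14.8% and 19.4% of all tested genes. At 50 FPKM or more, 3 of 9 genes rose and 1 fell, beside 13.1% and 27.8%. The largest rise in that top class was 0.20 (log2, Ckap2), against 1.28 and 1.09 in the lower classes. The top class also held the largest fall of the 33 genes (Gdf15, -0.32). How the size of rises runs with level over all genes was not examined, so this pattern may not be particular to the 33. The split by call is a description, since the call comes from the same libraries. FPKM also depends on the gene lengths the authors used, which matched the summed GENCODE M21 exons of the gene in 3 of the 33 cases.

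**Figure D4:**
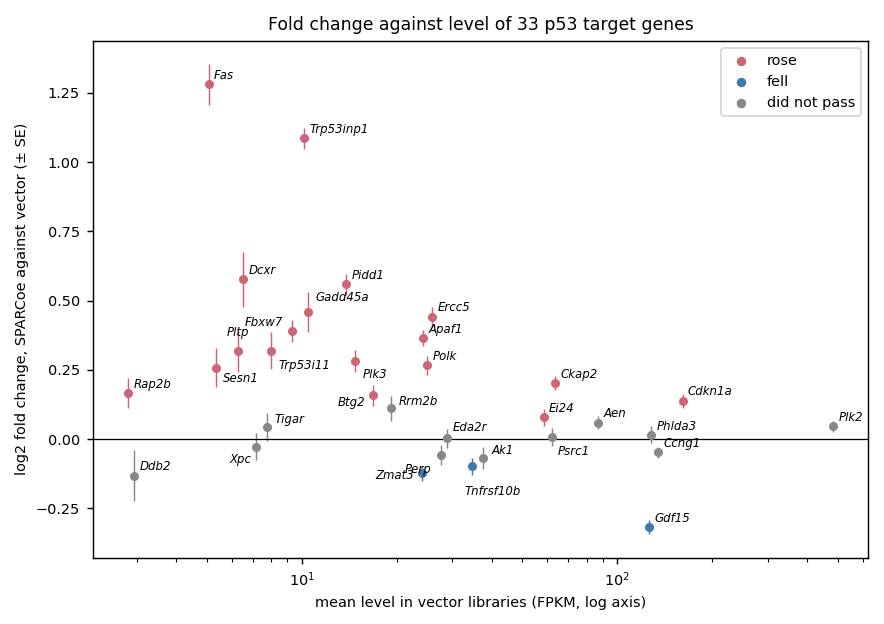
Log2 fold change (SPARCoe against vector, with its standard error) against the mean level in vector libraries (FPKM, log axis) for the 33 p53 target genes, coloured by call. The changes above 0.25 all lie at 25.8 FPKM or below, and the genes above 50 FPKM lie between -0.32 and 0.20.

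Matches to the p53 half-site consensus, a 10-base sequence, were found near the start of genes that rose and of genes that did not. RefSeq promoters (250 bases before to 50 after a start, GRCm38.p6, both strands) were given for 26 of the 33 genes. Of these, 9 held at least 1 exact half-site (34.6%), beside 9.55% of 27025 genes with a promoter. They comprised 7 of the 17 genes that rose and 2 of the 9 others. Most of the larger rises, Fas, Pidd1, Apaf1, Ercc5, Dcxr and Fbxw7, had no match in this window, while Ccng1 and Aen had one and did not pass. The half-sites are shown with their flanks, in the direction of the gene, to set the genes that rose beside the ones that did not; capitals mark the half-site, and the coordinates are those of the promoter window. The first 6 belong to genes that rose, and the last 2 to genes that did not pass.
Gadd45a (chr6:67037358-67037657, minus strand): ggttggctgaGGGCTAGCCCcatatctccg
Polk (chr13:96519138-96519437, minus strand): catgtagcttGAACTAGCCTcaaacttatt
Sesn1 (chr10:41887189-41887488, plus strand): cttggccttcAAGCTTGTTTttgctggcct
Ckap2 (chr8:22185770-22186069, minus strand): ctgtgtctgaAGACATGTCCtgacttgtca
Rap2b (chr3:61364257-61364556, plus strand): gcgacgtactGGGCATGCTCggctggg
Ei24 (chr9:36797285-36797584, minus strand): cgtgcggcccGGGCATGCCCagtgtgggcg
Ccng1 (chr11:40755237-40755536, minus strand): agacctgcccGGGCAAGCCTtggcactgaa
Aen (chr7:78895677-78895976, plus strand): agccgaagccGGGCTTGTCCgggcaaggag

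In the upstream promoter of Cdkn1a, printed above, the exact half-sites lie 12 bases apart, at -73 to -64 and -51 to -42 from that start. The downstream Cdkn1a promoter (chr17:29093519-29093818, plus strand) held no half-site, and its closest adjoining pair was 5 bases in 20 off the consensus. A pair of exact half-sites at most 13 bases apart was found in 20 of 27025 genes (0.0740%). Adjoining half-sites with at most 1 base in 20 off the consensus were found in 29 genes (0.107%), among them Cdkn1a and Ccng1. In Cdkn1a, that pair is the exact half-site at -51 to -42 and the 10 bases after it, which are printed in lower case. TGANTCA was found in Fas and Ak1 and in 8.97% of all genes. TGACGTCA, the cyclic AMP response element, was found in Btg2 and Plk2 and in 2.03% of all genes. A match in these letters is a description, and nothing outside the window was searched.

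Beyond the 33 genes, some regulators of p53 rose and Trp53 did not pass. Trp53 itself, which encodes p53, was at 312.8 ± 15.5 CPM with the empty vector and 313.9 ± 6.91 CPM in SPARCoe (SD, n = 6; log2 fold change 0.0047 ± 0.02, SE, edgeR adjusted p = 0.924), and p53 activity is set largely at the protein, which RNA does not measure. Of 15 tested members of the p53 family and its regulators, 4 rose, 0 fell and 11 did not pass, where 14.9% of all genes rose and 14.1% fell. Mdm2 rose 2.26-fold, from a mean of 122.6 ± 4.62 CPM to one of 277.0 ± 5.42 CPM (SD, n = 6; log2 fold change 1.18 ± 0.02, SE, edgeR adjusted p = 3.73e-35). Ppm1d, the phosphatase Wip1 that ends p53 signalling, rose 1.48-fold (edgeR adjusted p = 1.63e-12). Trp73, which encodes the p53 relative p73, rose from a mean of 0.0974 ± 0.0858 CPM to one of 3.08 ± 0.652 CPM (SD, n = 6; edgeR adjusted p = 5.69e-16). Both Mdm2 and Ppm1d are p53 targets that feed back on it. The fold of Mdm2 stands beside 2.43 for Fas and 2.12 for Trp53inp1.

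Of 6 BCL2-family genes, 2 rose, 1 fell and 3 did not pass, where 14.9% of all genes rose and 14.1% fell. Bbc3 (PUMA) rose 2.46-fold and Pmaip1 (NOXA) 1.37-fold, both without overlap between groups (edgeR adjusted p = 3.99e-25 and 5.86e-14). The anti-apoptotic Bcl2l1 fell by 0.08 (log2, edgeR adjusted p = 0.00602). Bax, Bid and Bcl2 did not pass, at log2 fold changes of -0.06 ± 0.03, 0.02 ± 0.03 and -0.07 ± 0.05 (SE). In 5 of 6 SPARCoe libraries Bax lay below the vector range (edgeR adjusted p = 0.126). Of 34 tested genes of the wider p53 pathway, 8 rose, 6 fell and 20 did not pass, with a median log2 fold change of 0.03. Beside them, 14.9% of all genes rose and 14.1% fell. This list also holds cyclins, cyclin-dependent kinases and caspases, so its counts are not those of p53 target genes alone. The 6 that fell were Sesn3, Thbs1, Tsc2, Casp8, Cdk2 and Ccnd2. Thbs1, the matricellular protein thrombospondin-1, and Ccnd2, cyclin D2, both fell by 0.23 (log2, edgeR adjusted p = 4.34e-14 and 3.75e-06). Gtse1, a G2 and S phase protein that binds p53, rose 1.33-fold, Shisa5, a p53-induced protein of the endoplasmic reticulum, 1.27-fold and Sesn2, a sestrin, 1.39-fold (edgeR adjusted p = 1.8e-18, 4.94e-15 and 2.62e-14).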

How the data were processed

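The authors deposited read counts per Ensembl gene and FPKM values for 12 libraries. The submitters' processing notes list HISAT2, Bowtie2, featureCounts, edgeR, Picard and SAMtools, with no role; the genome build, annotation and strand setting were not given in the sources used here. Each deposited FPKM equalled the count divided by the library total and 1 whole length per gene (within 0.001, 31742 genes). Symbols matched 55141 of 55487 IDs. Of counts from 1 to 10, 56.36% were even, so read pairs may add 2, and reads carry no molecular identifiers.

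Counts were tested with edgeR 4.0.16 (R 4.3.3; TMM, filterByExpr, robust glmQLFit and glmQLFTest), SPARCoe against vector, two-sided, with Benjamini-Hochberg adjustment over all 15734 genes; SE is the log2 fold change divided by the root of F. On simulated counts for this comparison (15532 genes), 99 genes carried a change of 0.5 and 98 a change of 1 (log2). Of these, 78.8% and 90.8% were recovered, and 7.74% of all calls were false. In the data 4571 of 15734 genes passed, and the 18 rises had a median of 0.32 (log2). Recovery of changes below 0.5, or with as many changed genes as in the data, was not tested. Alternatives used DESeq2 1.42.0, limma 3.58.1 on log2(FPKM + 1) or log2(FPKM + 0.1), other scalings and filters, a replicate block and each library left out. Positions and exon overlaps are from GENCODE M21 (GRCm38), not the authors' coordinates.

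Members, functional groups and lists were chosen with earlier results of these data known, so no list test was run. Genes with full values were Cdkn1a, Ccng1, Phlda3, Zmat3, Sesn1, Gdf15, the 10 largest rises, up to 6 falls and the 2 most abundant genes per functional group that did not pass; from each pathway list, up to 3 with the smallest adjusted p, plus Trp53 and Mdm2. One podocyte marker is not reported here and was left out of its list's sum.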

Additional observations from a re-analysis of the deposited data

Results flagged for a closer look

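In 7 cases, 1 library of a group stood apart from the other 5 (its gap to the nearest, as a share of the group's range, exceeded Dixon's critical value); 68 groups of 6 libraries were examined, of which chance gives about 1 in 20, or 3.4. Gadd45a was at 12 CPM in SPARCoe replicate 5 and between 10.0 and 10.6 CPM in the rest. Apaf1 was at 87.0 CPM in SPARCoe replicate 5, against 95.1 to 98.1 CPM, and at 71.2 CPM in vector replicate 5, against 73.7 to 74.8 CPM. Pidd1 was at 40.4 CPM in vector replicate 3, against 34.3 to 36.3 CPM, and Gdf15 was at 198.5 CPM in that library, against 175.8 to 183.9 CPM. Dcxr was at 4.68 CPM in vector replicate 1, against 5.70 to 6.27 CPM, and Eda2r at 73.6 CPM in vector replicate 2, against 61.8 to 65.7 CPM. Without any 1 library, Gadd45a, Apaf1, Pidd1, Gdf15 and Dcxr still passed the edgeR test (highest adjusted p = 1.23e-05, 1.68e-12, 3.75e-14, 1.56e-12 and 8.65e-05).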

How the results depend on the processing

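Against a minimum change of 1.2-fold (glmTreat), 8 of the 33 genes were higher and 0 lower, beside 5.43% and 0.877% of all genes. In either direction 992 of all genes changed. This test asks for a larger change by construction. Under the other scalings, filters and tests 15 to 21 were higher and 2 or 3 lower. Of all genes tested, 7.23% to 16.5% were higher and 5.04% to 16.6% lower under those settings. With 1 library left out, 17 to 20 of the 33 were higher and 2 to 4 lower. Those fits called 14.1% to 14.9% of all genes higher and 12.6% to 13.8% lower. The direction turned for genes close to no difference. Eda2r was at -0.0037 and Trp53 at -0.0019 (log2) with no filter on low counts. With 1 library left out, Eda2r ran from -0.012 to 0.040, Phlda3 from -0.0055 to 0.038, Psrc1 from -0.017 to 0.029 and Trp53 from -0.0099 to 0.020. Of 792 values of the 33 genes under alternatives, 730 kept direction and call, 30 lost the call, 22 gained it and 10 turned.

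With the replicate number as a block, 21 of the 33 genes were higher and 3 lower. Of all genes tested, 15.1% were higher and 14.6% lower (4663 genes together). Deviations of same-numbered libraries from their group means correlated at -0.011 to 0.015. Each vector library correlated more with some other number. Since the highest of the other numbers was taken, that comparison cannot decide whether the numbers mark pairs.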

Other observations

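The values of close relatives of 3 members are given here, picked after the values were seen. Of the sestrins, Sesn1 and Sesn2 rose (log2 fold change 0.26 and 0.47) and Sesn3, better known as a FoxO target, fell, with means of 38.9 ± 1.83 CPM in vector and 32.4 ± 2.38 CPM under overexpression (SD, n = 6; edgeR adjusted p = 4.33e-06). Gadd45a rose (0.46), while Gadd45b and Gadd45g, of the same family but not classical p53 targets, stood at 0.06 ± 0.03 and -0.07 ± 0.03 (log2, SE) and did not pass (edgeR adjusted p = 0.129 and 0.116). Of the G-type cyclins, neither Ccng1 (-0.05 ± 0.02) nor Ccng2 (0.09 ± 0.05, log2, SE, edgeR adjusted p = 0.204) passed. The differences between relatives were not tested.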
